A study of Mus musculus with 8 samples.

Results

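The 10 genes described here encode proteins that bring fatty acids into a cell, bind them inside it and join them to coenzyme A. They were chosen by symbol from the 41325 genes listed in each library: *Fabp3*, *Fabp4* and *Fabp5* among the fatty acid binding proteins, *Cd36*, *Slc27a1*, *Slc27a3* and *Slc27a4* among the proteins of uptake, and *Acsl1*, *Acsl3* and *Acsl4* among the long-chain acyl-CoA synthetases. RNA-seq was carried out in the mouse mesenchymal stem cell line C3H10T1/2, which can be turned into fat cells. It covered a control line labelled shControl, with the genotype given as WT, and the knockdown lines shKDM4D, shNFIB and shMLL1. KDM4D is a histone H3K9 demethylase, NFIB a transcription factor and MLL1 a histone H3K4 methyltransferase, and the comparisons ask what their depletion does to the adipogenic expression program. Each line was sequenced at day 0, when the cells had been confluent for 2 days, and at day 5 of adipogenic differentiation, which gives 8 libraries, each the only one of its condition. Between these days all 4 lines received insulin (10 µg/ml), dexamethasone (1 µM) and isobutylmethylxanthine (0.5 mM) until day 2, then insulin alone for 2 days, always with 10% serum. According to the study's methods, the knockdown lines are puromycin-resistant clones that carry an shRNA in pLKO.1, so a difference between lines is also a difference between clones. Without replicates no p-value is given. The 95% intervals cover counting error only, and reads that are copies of 1 molecule would make them too narrow.

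Long-chain fatty acids released from lipoproteins by lipases reach the cell membrane, where CD36 and the fatty acid transport proteins (FATP, the Slc27 family) favor their entry. Inside the cell, fatty acid binding proteins (FABP) carry them through the aqueous cytosol, and acyl-CoA synthetases (ACSL) trap them as acyl-CoA, the form used for triglyceride synthesis and for oxidation. In fat cells FABP4 (also named aP2), CD36 and ACSL1 are classical products of the program driven by PPARγ and C/EBPα.

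The expression levels are RPKM, reads per kilobase of annotated exons, scaled to the mapped reads of the library. The libraries held between about 15800000 and 38200000 mapped reads, as worked out from the RPKM of single reads. A gene was taken as expressed when its RPKM was over 1 in at least 1 of the 8 libraries, which held for 11513 genes and for 8 of the 10 genes studied here, and as changed when the RPKM of 1 library was over 2 times that of the other. *Fabp3* and *Slc27a3* stayed under the limit in all 8 libraries, and *Cd36* passed it only through shControl cells at day 5. *Fabp4* passed it only at day 5, in shControl, shKDM4D and shMLL1 cells. The targeted genes were checked first. At day 5 the log2 ratio of the knockdown line to shControl cells was -2.33 for *Nfib* (95% interval -2.44 to -2.22), -1.70 for *Kmt2a*, which encodes MLL1 (-1.81 to -1.58), and -1.86 for *Kdm4d*, with a wide interval from -3.94 to -0.17 as it rested on 4 and 13 reads. At day 0 they were -2.10, -1.37 and -0.55, the last from 1 and 2 reads. All 7 mesenchymal markers were listed above 0, with a summed RPKM from 2149 to 2948 that was carried by *Col1a1*, *Col1a2* and *Vim*. Single markers set lines apart already at day 0. *Thy1* was at 25.01 and 22.6 RPKM in shControl and at 11.8 and 11.1 in shMLL1 cells at day 0 and day 5, but at 0.0171 and 0.139 in shKDM4D and 0.0179 and 0.0632 in shNFIB cells. *Ly6a* was at 81.5 RPKM in shMLL1 cells at day 0, against 172 in control cells, and at 927 against 136 at day 5. The part of these differences between lines in the levels of the members was not tested. The summed adipocyte markers reached 531 in shControl cells at day 5, whereas shKDM4D cells reached 16.3, shMLL1 cells 1.15 and shNFIB cells 0.556. At day 0 the sum was at most 0.118, and *Lep*, 1 of the 7, was at 0 in all libraries. The 7 macrophage markers summed to between 0.586 and 2.24 RPKM, with *Tyrobp* at 0 in all libraries, the 7 endothelial markers to between 0.285 and 1.79, with *Tie1* at 0, and the 7 muscle markers to between 1.05 and 4.47, with *Myod1* at 0. In such bulk RNA, fewer fat cells and less RNA per fat cell cannot be told apart.

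The promoter windows of *Cd36*, *Acsl1* and *Slc27a1* are shown since these genes spanned the widest range of levels among the expressed members with an entry. RefSeq gave 11 windows of 300 bases (250 before to 50 after a start site, GRCm38.p6) for 8 of the 10 genes; *Fabp4* and *Fabp5* have none. Capitals mark AGGTCA, the half-site of nuclear receptors such as PPARγ, and TTGGC, the half-site of the NFI factors to which NFIB belongs, each searched on both strands. The upstream window of *Acsl1* holds neither.
Cd36 (chr5:17835847-17836146, minus strand): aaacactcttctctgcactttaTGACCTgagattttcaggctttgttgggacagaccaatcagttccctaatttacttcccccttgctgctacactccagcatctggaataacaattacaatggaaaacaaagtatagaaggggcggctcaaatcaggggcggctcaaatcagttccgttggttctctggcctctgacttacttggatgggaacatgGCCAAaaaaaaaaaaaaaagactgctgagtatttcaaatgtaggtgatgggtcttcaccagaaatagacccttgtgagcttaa
Acsl1, upstream start (chr8:46470787-46471086, plus strand): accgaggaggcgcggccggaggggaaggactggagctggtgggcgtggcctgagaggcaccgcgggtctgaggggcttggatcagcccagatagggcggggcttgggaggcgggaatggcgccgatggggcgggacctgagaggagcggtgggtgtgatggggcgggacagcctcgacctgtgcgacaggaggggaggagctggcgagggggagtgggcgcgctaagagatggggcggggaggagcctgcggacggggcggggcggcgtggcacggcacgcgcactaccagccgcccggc
Acsl1, downstream start (chr8:46490716-46491015, plus strand): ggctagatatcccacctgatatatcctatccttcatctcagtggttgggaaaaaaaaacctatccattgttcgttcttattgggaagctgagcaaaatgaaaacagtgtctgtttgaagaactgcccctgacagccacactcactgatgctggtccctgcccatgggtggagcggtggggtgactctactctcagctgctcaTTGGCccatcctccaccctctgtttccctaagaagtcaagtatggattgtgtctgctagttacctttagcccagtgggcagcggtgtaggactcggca
Slc27a1, upstream start (chr8:71568621-71568920, plus strand): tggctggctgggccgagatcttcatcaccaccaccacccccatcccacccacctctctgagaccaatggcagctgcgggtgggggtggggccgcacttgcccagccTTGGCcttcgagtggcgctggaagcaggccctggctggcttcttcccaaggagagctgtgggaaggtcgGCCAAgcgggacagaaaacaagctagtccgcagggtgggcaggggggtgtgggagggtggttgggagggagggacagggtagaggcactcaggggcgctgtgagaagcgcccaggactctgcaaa
Among the 11 windows, AGGTCA was found only in that of *Cd36*, 228 bases before the start, while 16.3% of 32851 RefSeq windows of this length hold it. TTGGC was found in 7 of the 11 windows, with 46.7% among all windows. It was present in *Cd36*, in the downstream window of *Acsl1* and in 2 of the 3 windows of *Slc27a1*, and also in those of *Acsl3*, *Acsl4* and *Slc27a3*, whose levels moved less. CCAAT, which can overlap TTGGC on the opposite strand, was in 6 of the 11 windows (37.4% of all) and the GC box GGGCGG in 8 (35.7%), 7 times in the upstream window of *Acsl1*. TATAAA was in none (13.6%). Neither were the full DR1 element (0.0396%) and the full NFI palindrome (0.0365%), nor the C/EBP letters TTGCNNAA (10.8%) and TTGCGCAA, a special case of them (0.183%). A match of letters is a description of the window and not a binding site.

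The binding proteins held the largest change. *Fabp4* (ENSMUSG00000062515.3, chr3:10204088-10208576 of GRCm38, minus strand) encodes the FABP of fat cells. Its RPKM at day 0 and day 5 was 0.661 and 277 in shControl, 0.194 and 9.34 in shKDM4D, 0.0358 and 0.380 in shNFIB, and 0.152 and 1.75 in shMLL1 cells. The control cells at day 5 stood above the 7 other libraries, followed by the day 5 libraries of shKDM4D and shMLL1, and the counting intervals of these 3 overlapped with no other library. shNFIB cells at day 5, with 27 reads, lay under the control cells at day 0, with 79 reads, and their intervals overlapped. *Fabp4* rose in every line. The log2 change was 8.71 (8.39 to 9.05) in shControl and 5.59 (4.90 to 6.38) in shKDM4D cells. It was smaller and nearly the same in shNFIB (3.41, 1.71 to 5.77) and shMLL1 cells (3.53, 2.95 to 4.16). At day 5 it was lower than in control cells by 29.6-fold for shKDM4D, by 158-fold for shMLL1 and by 729-fold for shNFIB cells. It was lower already at day 0, where the log2 ratios were -1.77 (-2.62 to -1.0), -4.21 (-6.51 to -2.61, from 3 reads) and -2.12 (-2.82 to -1.47). The counting unit of *Fabp4* spans the whole gene, 4489 bases with the intron of a retained-intron transcript, whereas the coding transcript is 896 bases long. Per kilobase of that transcript the level in control cells at day 5 would be 1386.

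*Fabp5* (ENSMUSG00000027533.10, chr3:10012548-10016607, plus strand), which encodes the epidermal FABP, lies on the same chromosome as *Fabp4* and was the main FABP before induction. Its RPKM at day 0 and day 5 was 24.95 and 35.0 in shControl, 10.3 and 3.63 in shKDM4D, 15.98 and 9.38 in shNFIB, and 44.5 and 15.5 in shMLL1 cells. The highest level was found in shMLL1 cells at day 0 and the lowest in shKDM4D cells at day 5. In control cells the log2 change was 0.49 (0.41 to 0.57), short of the 2-fold limit. *Fabp5* fell in shKDM4D cells, with a log2 change of -1.50 (-1.71 to -1.30), and in shMLL1 cells, with -1.53 (-1.60 to -1.45). Its change was -0.77 (-0.92 to -0.62) in shNFIB cells. At day 5 it was lower than in control cells in all 3 knockdown lines, by 9.65-fold, 3.74-fold and 2.27-fold in shKDM4D, shNFIB and shMLL1. Before induction the lines differed in direction, with a log2 ratio to control cells of -1.28 (-1.40 to -1.16) in shKDM4D cells, -0.64 (-0.75 to -0.54) in shNFIB cells and 0.83 (0.77 to 0.90) in shMLL1 cells. Divided by *Gapdh*, the value of shNFIB cells at day 0 was 0.00 to 2 decimals. Of the 50-base stretches of the *Fabp5* coding transcript, 21.1% also occur in 5 other annotated genes (*Fabp5l2*, *Gm13998*, *Gm14328*, *Gm6100* and *Gm6166*), which are not listed under these symbols in the libraries, so reads from such copies cannot be told apart from its own.

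The 2 main binding protein genes did not rank the knockdown lines alike. At day 5 shKDM4D cells had the most *Fabp4* and the least *Fabp5* among the knockdown lines. The direct log2 ratio of shKDM4D to shNFIB cells was 4.62 (4.07 to 5.23) for *Fabp4* and -1.37 (-1.58 to -1.16) for *Fabp5*. Against shMLL1 cells it was 2.42 (2.23 to 2.61) and -2.09 (-2.27 to -1.91). In this library the level of *Fabp4* relative to *Fabp5* was 2.57 per exon length, against 7.89 in the control cells, 0.113 in shMLL1 and 0.0405 in shNFIB cells on that day. At day 0 this ratio was between 0.00224 and 0.0265. With the coding transcripts as lengths it was 10.9 in control cells and 3.56 in shKDM4D cells at day 5. *Fabp3* (ENSMUSG00000028773.8, chr4:130308595-130315463, plus strand), the FABP of heart and skeletal muscle, was covered by 5, 0, 0, 1, 5, 7, 1 and 2 reads in shControl, shKDM4D, shNFIB and shMLL1 cells, day 0 before day 5 in each. Its highest RPKM was 0.537 in shNFIB cells at day 5, and all neighbours in the order of levels overlapped. In shNFIB cells at day 5 it was 2.85-fold above a floor of 3 reads in control cells, with a lower bound of 0.81 for the log2 ratio. No call was made for a gene under the limit of expression, and 29.2% of its 50-base stretches are shared with *Fabp3-ps1*.

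**Figure D1:**
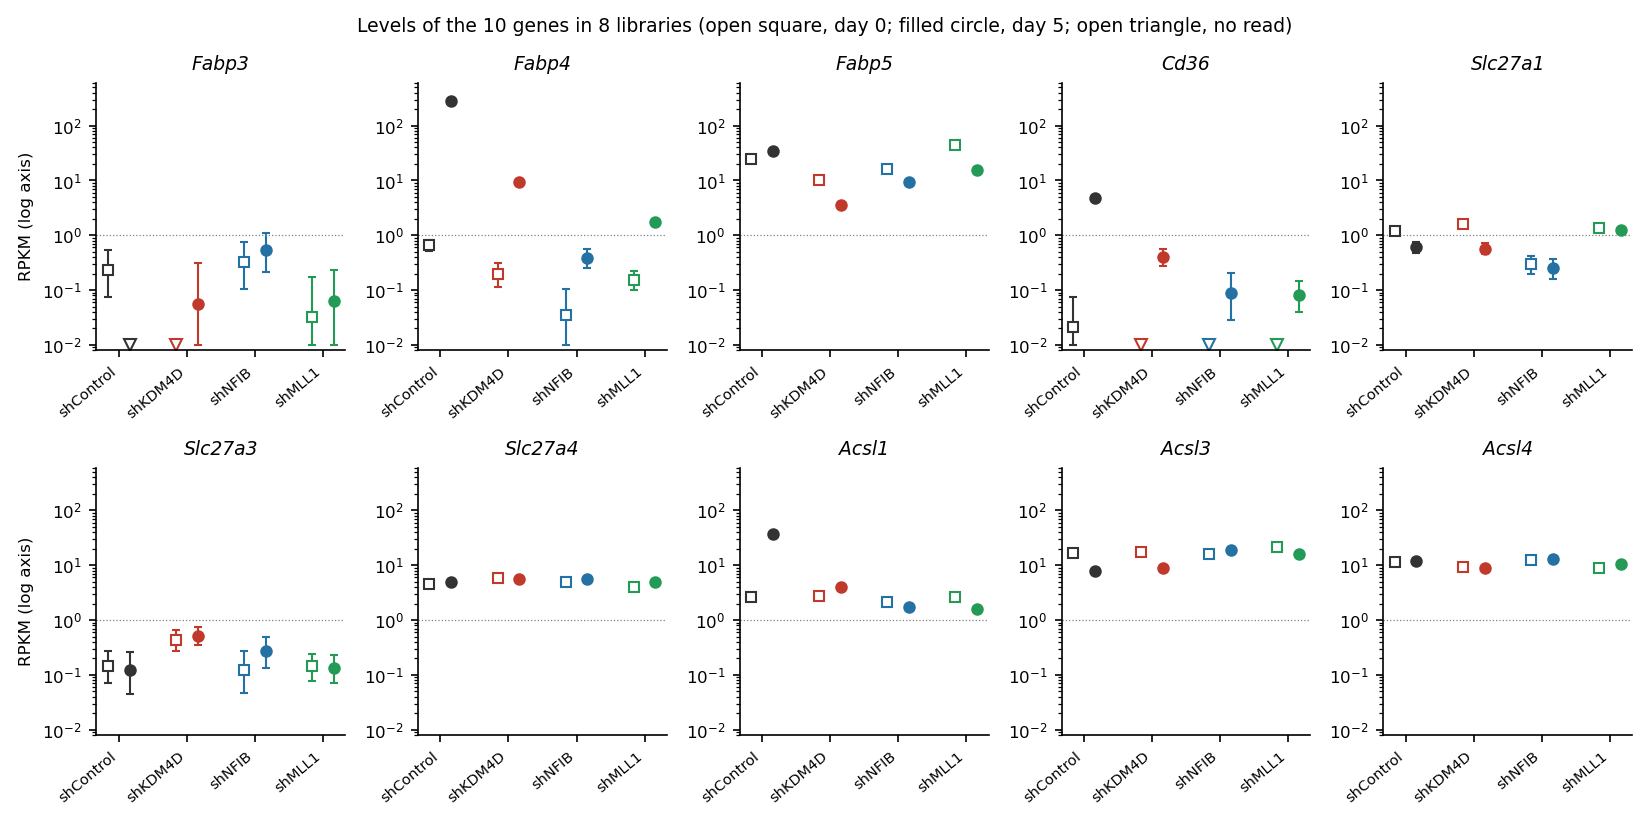
RPKM of the 10 genes (vertical log axis, the same in all panels) in the 4 lines, with open squares for day 0, filled circles for day 5 and open triangles at the lower edge for libraries without a read. Bars are exact 95% Poisson intervals, cut off at 0.01, and the dotted line marks an RPKM of 1. *Fabp4*, *Cd36* and *Acsl1* were highest in control cells at day 5, while *Slc27a4* and *Acsl4* each stayed within a range of 1.44-fold.

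**Figure D2:**
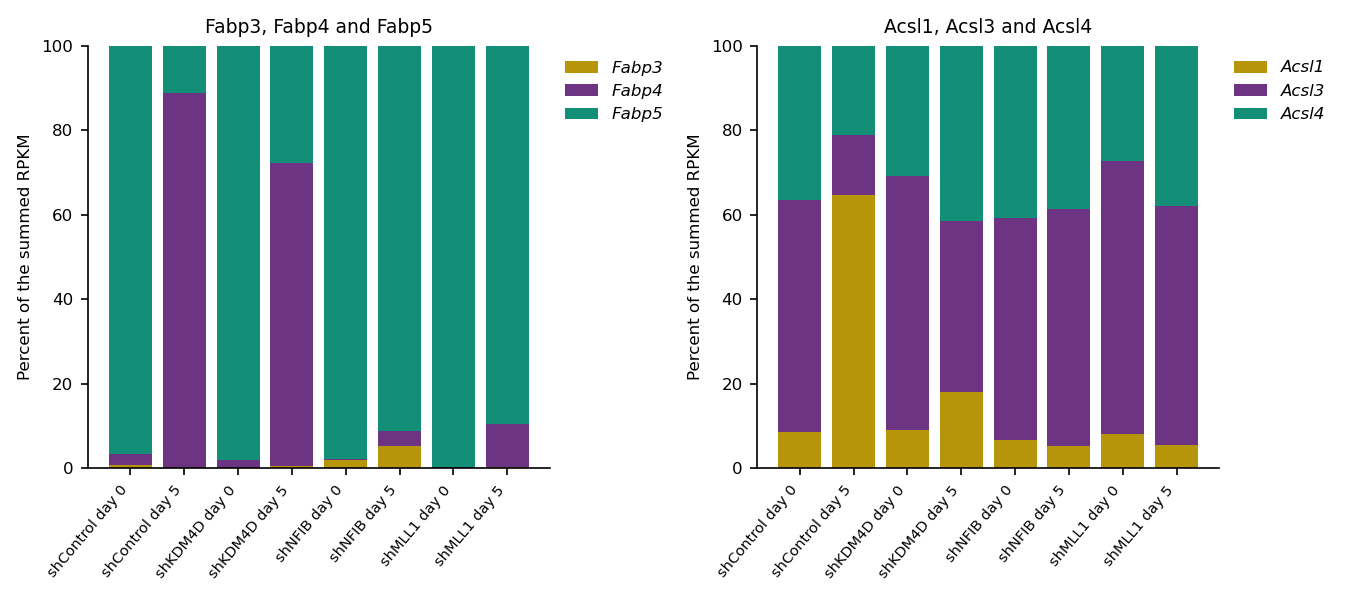
Share of each gene in the summed RPKM (percent) of the 3 FABP genes and of the 3 ACSL genes in each library. *Fabp4* took 88.8% of the FABP sum in control cells and 71.7% in shKDM4D cells at day 5, and *Acsl1* took 64.6% of the ACSL sum in control cells at day 5.

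Among the proteins of uptake, *Cd36* (ENSMUSG00000002944.15, chr5:17781690-17888801, minus strand), which encodes the fatty acid translocase, was seen almost only after induction. Its RPKM at day 0 and day 5 was 0.0209 and 4.84 in shControl, 0 and 0.399 in shKDM4D, 0 and 0.0879 in shNFIB, and 0 and 0.0804 in shMLL1 cells. These levels stand for 2, 336, 0, 31, 0, 5, 0 and 11 reads. In the 3 knockdown libraries at 0 reads, a floor of 3 reads stands for an RPKM of 0.0428, 0.0448 and 0.0219. *Cd36* rose in control cells by a log2 ratio of 7.86, with an interval from 5.99 to 10.91 as day 0 rests on 2 reads. The levels at day 5 were 9.34-fold above this floor of the day 0 library in shKDM4D, 1.964-fold in shNFIB and 3.67-fold in shMLL1 cells. The lower bounds of the counting intervals, as log2 ratios, were 2.84, 0.11 and 1.33 in the same order. At day 5 *Cd36* was below control cells by 12.1-fold, 55.1-fold and 60.3-fold, with log2 ratios of -3.60 (-4.18 to -3.07), -5.78 (-7.42 to -4.55) and -5.91 (-6.93 to -5.05). shKDM4D cells kept more *Cd36* than shNFIB and shMLL1 cells (direct log2 ratio 2.18, interval 0.81 to 3.90, and 2.31, interval 1.28 to 3.45), while the last 2 lines did not differ beyond counting error (0.13, interval -1.75 to 1.77). At day 0 no difference of *Cd36* between lines was detectable at this depth.

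The FATP genes did not follow this pattern. *Slc27a4* (ENSMUSG00000059316.2, chr2:29802634-29817522, plus strand), which encodes FATP4, a transporter with acyl-CoA synthetase activity, had an RPKM at day 0 and day 5 of 4.62 and 4.96 in shControl, 5.74 and 5.56 in shKDM4D, 4.97 and 5.62 in shNFIB, and 3.98 and 4.98 in shMLL1 cells. The highest library was 1.44-fold above the lowest, every neighbour in the order overlapped, and no comparison passed the 2-fold limit. *Slc27a1* (ENSMUSG00000031808.7, chr8:71568882-71587302, plus strand) encodes FATP1, the insulin-responsive transporter of muscle and fat. Its RPKM was 1.22 and 0.603 in shControl, 1.61 and 0.571 in shKDM4D, 0.294 and 0.249 in shNFIB, and 1.38 and 1.23 in shMLL1 cells. Both shNFIB libraries were the lowest of the 8 and their intervals overlapped with each other only. *Slc27a1* fell in control cells, with a log2 change of -1.02 (-1.44 to -0.61), and in shKDM4D cells, with -1.499 (-1.91 to -1.10). The value in control cells was at the limit, and was -0.99 when divided by *Gapdh*, -0.91 with 0.1 added to each RPKM and -0.47 with 1 added, so that the call was lost. The change was -0.24 (-1.08 to 0.58) in shNFIB cells and -0.17 (-0.41 to 0.07) in shMLL1 cells. Against control cells it was lower in shNFIB cells by 4.16-fold at day 0 (log2 ratio -2.06, -2.65 to -1.51) and by 2.42-fold at day 5 (-1.28, -2.03 to -0.58). In shMLL1 cells at day 5 it was 2.04-fold higher (1.03, 0.64 to 1.43), a value at the limit that was 0.67 when divided by *Gapdh*. Of its 50-base stretches 1.75% are shared with 98 other genes. *Slc27a3* (ENSMUSG00000027932.14, chr3:90385239-90389938, minus strand), which encodes FATP3, had 10 and 6 reads in shControl, 22 and 29 in shKDM4D, 6 and 11 in shNFIB, and 14 and 13 in shMLL1 cells, with RPKM from 0.121 to 0.522. It counted as not expressed in all libraries. Both shKDM4D libraries stood highest, with a log2 ratio to control cells of 1.58 (0.45 to 2.83) at day 0 and 2.11 (0.82 to 3.67) at day 5.

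The synthetases divided into 1 gene that moved strongly and 2 that moved little or the other way. *Acsl1* (ENSMUSG00000018796.13, chr8:46471037-46536051, plus strand) encodes the main ACSL of fat cells. Its RPKM at day 0 and day 5 was 2.69 and 36.4 in shControl, 2.69 and 3.95 in shKDM4D, 2.11 and 1.72 in shNFIB, and 2.66 and 1.58 in shMLL1 cells. The 4 lines started on nearly the same level, and the control cells at day 5 stood alone. *Acsl1* rose by 13.6-fold in control cells (log2 change 3.76, 3.65 to 3.87), and the log2 change was 0.55 (0.40 to 0.71) in shKDM4D cells. It was -0.29 (-0.52 to -0.07) in shNFIB cells and -0.75 (-0.90 to -0.61) in shMLL1 cells, the latter with the lowest level of the 8 libraries. The value in shKDM4D cells was 1.02 when divided by *Gapdh*, past the limit. At day 0 the log2 ratio to control cells was 0.00 (-0.16 to 0.17) for shKDM4D, -0.01 (-0.15 to 0.12) for shMLL1 cells, and -0.35 (-0.52 to -0.17) in shNFIB cells, where division by *Gapdh* turned it to 0.29. At day 5 *Acsl1* was lower than in control cells by 9.22-fold for shKDM4D, 21.2-fold for shNFIB and 23.0-fold for shMLL1 cells. Of the knockdown lines shKDM4D kept the most, at a direct log2 ratio of 1.20 (1.00 to 1.39) to shNFIB and 1.32 (1.17 to 1.47) to shMLL1 cells, and the latter 2 differed by 0.12 (-0.08 to 0.33). The counting unit of *Acsl1* is 10483 bases of exons against 3897 in its longest coding transcript, so RPKM places it low beside the other 2 synthetases.

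*Acsl3* (ENSMUSG00000032883.15, chr1:78657825-78707743, plus strand), which encodes a synthetase of the endoplasmic reticulum and lipid droplets, had an RPKM at day 0 and day 5 of 17.03 and 7.99 in shControl, 17.7 and 8.77 in shKDM4D, 16.3 and 18.7 in shNFIB, and 21.3 and 15.8 in shMLL1 cells. It fell by 1.09 (interval -1.22 to -0.97) in control cells and by 1.01 (-1.14 to -0.89) in shKDM4D cells on the log2 scale, a value of -0.54 when divided by *Gapdh*. The change was 0.19 (0.08 to 0.31) in shNFIB cells, which division by *Gapdh* turned to -0.37, and -0.43 (-0.50 to -0.35) in shMLL1 cells. At day 5 shNFIB cells held 2.34-fold more than control cells (log2 ratio 1.23, 1.09 to 1.36). The ratio was 0.99 (0.86 to 1.11) in shMLL1 cells, just short of the limit, and 0.13 (-0.01 to 0.28) in shKDM4D cells. In its exons *Acsl3* overlaps *Utp14b* on the same strand over 244 bases, and *Utp14b* was listed at 1.77 to 5.06 RPKM. *Acsl4* (ENSMUSG00000031278.12, chrX:142317993-142390535, minus strand), which encodes a synthetase with a preference for arachidonic acid, stayed between 8.96 RPKM in shMLL1 cells at day 0 and 12.9 in shNFIB cells at day 5, a range of 1.44-fold. It was 11.3 and 11.96 in shControl, 9.13 and 9.04 in shKDM4D, 12.7 and 12.9 in shNFIB, and 8.96 and 10.7 in shMLL1 cells, and no comparison passed the limit.

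Within the 3 synthetase genes the share of *Acsl1* in the summed RPKM went from 8.65% to 64.6% in control cells and from 9.13% to 18.2% in shKDM4D cells between day 0 and day 5, as the plot of family shares shows. It was 6.78% and 5.17% in shNFIB and 8.09% and 5.63% in shMLL1 cells. The sum of the 3 genes was 31.0 RPKM in control cells at day 0 and 56.4 at day 5, against 21.8, 33.3 and 28.1 at day 5 in shKDM4D, shNFIB and shMLL1 cells. With the coding transcripts as lengths, *Acsl1* held 82.3% in control cells and 36.0% in shKDM4D cells at day 5. The related *Acsl5* had a higher RPKM than *Acsl3* in all 8 libraries, with an RPKM of 21.3 and 12.8 in shControl, 22.1 and 13.7 in shKDM4D, 24.2 and 24.97 in shNFIB, and 23.8 and 17.0 in shMLL1 cells. Counted with it, *Acsl1* held 52.7% of the 4 genes in control cells at day 5.

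**Figure D3:**
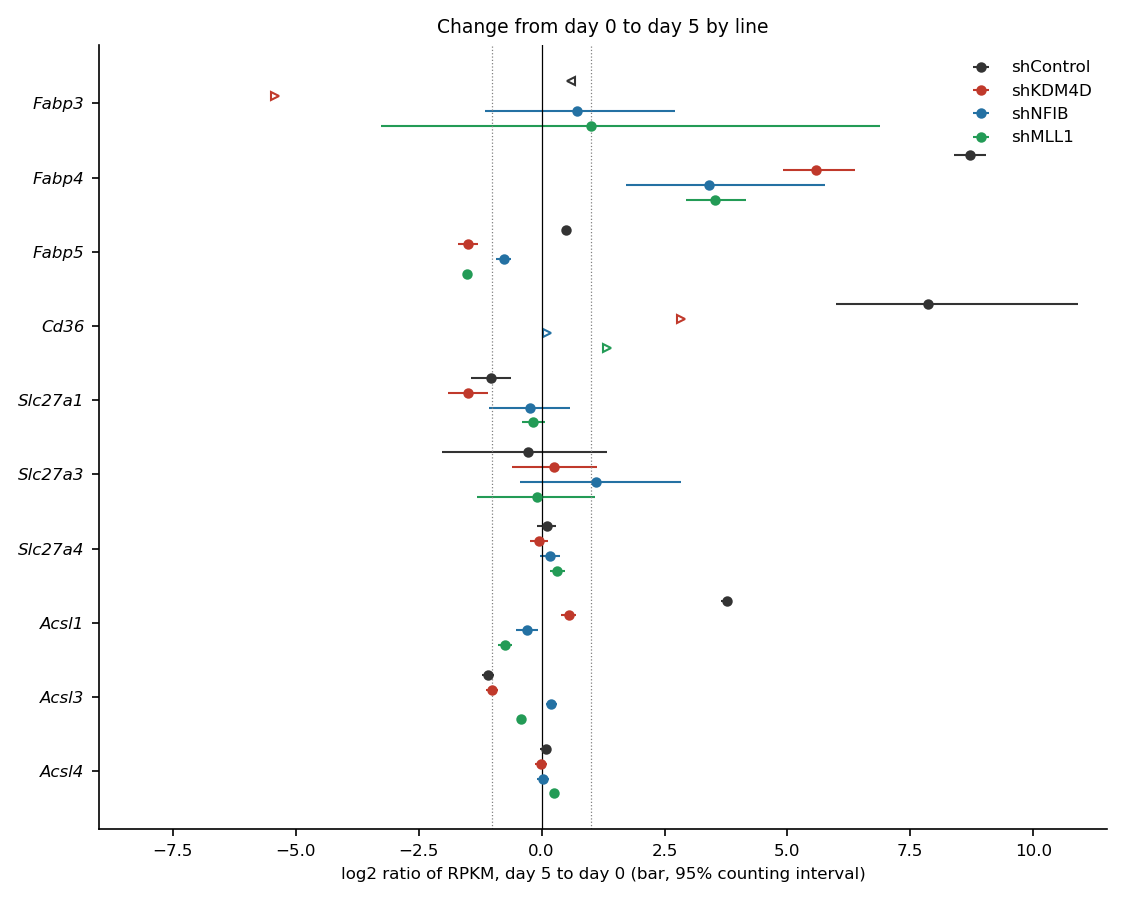
Log2 ratio of RPKM at day 5 to day 0 (horizontal axis) for the 10 genes in the 4 lines. Bars are exact 95% counting intervals, open triangles stand at the bound of the interval on the side of a library without a read, pointing to where the ratio lies, and dotted lines mark the 2-fold limit. *Fabp5* lies above 0 only in control cells (0.49), and *Acsl1* passes the limit only there (3.76).

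In the comparison of day 5 with day 0 in control cells, 3 of the 10 genes rose (*Fabp4*, *Cd36* and *Acsl1*) and 2 fell (*Slc27a1* and *Acsl3*). Of all expressed genes 13.0% rose and 8.56% fell. The unexpressed *Fabp3* and *Slc27a3* could not be called in any comparison, so all counts of members rest on 8 genes. The median log2 change, with 0.1 added to each RPKM, was 0.09 over all 10 genes and 0.03 over all expressed genes. The former includes the unexpressed *Fabp3* and *Slc27a3*, as do the medians of the members below, so the sets are unlike. *Cd36* counted as expressed only through control cells at day 5, which favors its call as a rise. *Fabp4* did so only through shControl, shKDM4D and shMLL1 cells at day 5, which favors its call as a rise in these lines. The call of *Slc27a1* was lost with *Gapdh* as the reference or with a pseudocount, and that of both falling genes when the whole interval had to pass the limit. In shKDM4D cells 2 rose (*Fabp4* and *Cd36*) and 3 fell (*Fabp5*, *Slc27a1* and *Acsl3*), with 12.8% and 8.44% of all genes and a median of 0.10 against 0.03. In shNFIB cells *Fabp4* and *Cd36* were called higher and none fell, with 12.6% and 4.96% of all genes and a median of 0.18 against 0.09. The call of *Cd36* there rests on 5 reads against 0, which is 1.964-fold against the floor of 3 reads and under the limit. Only *Fabp4* was left with 0.1 added to each RPKM. In shMLL1 cells *Fabp4* and *Cd36* rose and *Fabp5* fell, with 20.4% and 6.89% of all genes and a median of 0.10 against 0.17. In that line the expressed genes as a whole lay higher at day 5, and median-of-ratios scaling lowered each log2 change by 0.21, which changed no call there.

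The knockdown lines share the control library of the day, so their ratios are not independent of each other. No member was called higher than in control cells at day 0. shKDM4D cells had 3 genes lower (*Fabp4*, *Fabp5* and *Cd36*) and 0 higher, with 4.26% and 1.98% of all expressed genes. In shNFIB cells 3 were lower (*Fabp4*, *Cd36* and *Slc27a1*) and 0 higher, with 6.05% and 2.95% of all genes. In shMLL1 cells 2 were lower (*Fabp4* and *Cd36*) and 0 higher, with 7.43% and 1.67%. In all 3 lines the call of *Cd36* at day 0 rests on 2 reads in control cells against 0, with an interval that includes no difference. Without it 2, 2 and 1 genes were lower. Of these, *Fabp4* was under the limit of expression at day 0 in every line. It stood at 0.661, 0.194, 0.0358 and 0.152 RPKM in shControl, shKDM4D, shNFIB and shMLL1 cells, and counted as expressed only through day 5 libraries. At day 5 the same 4 genes were lower in each line. These 4 (*Fabp4*, *Fabp5*, *Cd36* and *Acsl1*) were lower and 0 higher in shKDM4D cells, with 4.57% and 1.88% of all genes. In shNFIB cells 5 were lower (with *Slc27a1*) and *Acsl3* was higher, with 5.67% and 5.54%. In shMLL1 cells 4 were lower and *Slc27a1* was higher, with 4.02% and 5.25%. In each line the lower genes include *Cd36*, which counted as expressed only through control cells at day 5. That condition favors a lower call, so the call of *Cd36* carries no weight beside the share of all genes. The median log2 ratio of all 10 members at day 5 was -0.23, -0.45 and -0.08 in shKDM4D, shNFIB and shMLL1 cells. Over all expressed genes it was 0.01, 0.09 and 0.07, both with 0.1 added to each RPKM. The unexpressed members raise the former medians, with *Fabp3* at 0.64, 2.67 and 0.71 and *Slc27a3* at 1.49, 0.75 and 0.08. For the calls at day 5, the whole counting interval lay past the limit in 4 of 4, 5 of 6 and 4 of 5. The exception was *Slc27a1* in shNFIB and shMLL1 cells.

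**Figure D4:**
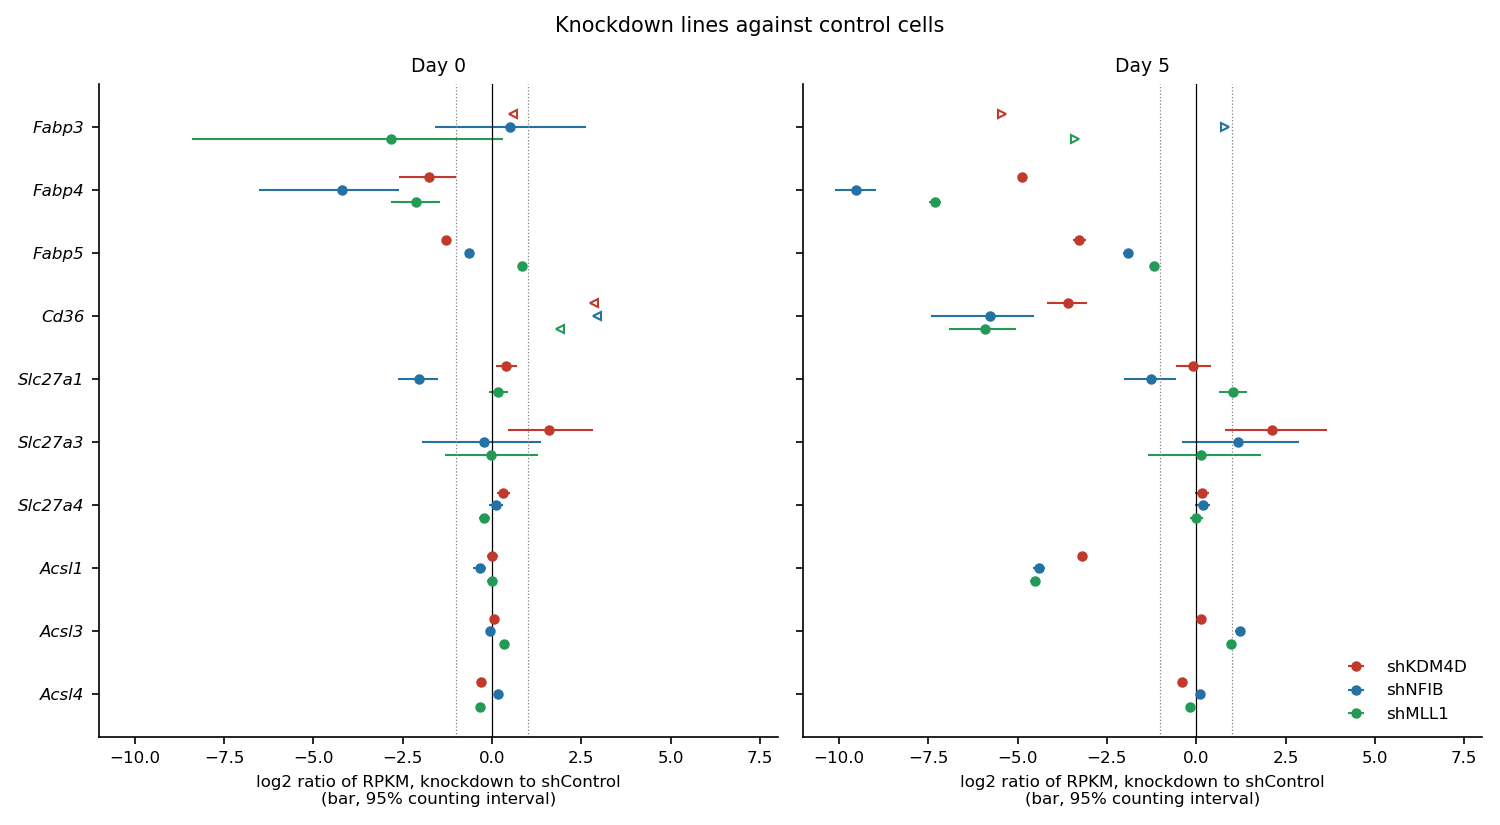
Log2 ratio of RPKM in each knockdown line to shControl cells at day 0 and at day 5 (horizontal axes) for the 10 genes, with exact 95% counting intervals. Open triangles mark the bound of the interval where 1 library had no read, and dotted lines the 2-fold limit. At day 5 *Fabp4*, *Fabp5*, *Cd36* and *Acsl1* lie to the left of the limit in all 3 lines, from -9.51 for *Fabp4* in shNFIB cells to -1.18 for *Fabp5* in shMLL1 cells.

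**Figure D5:**
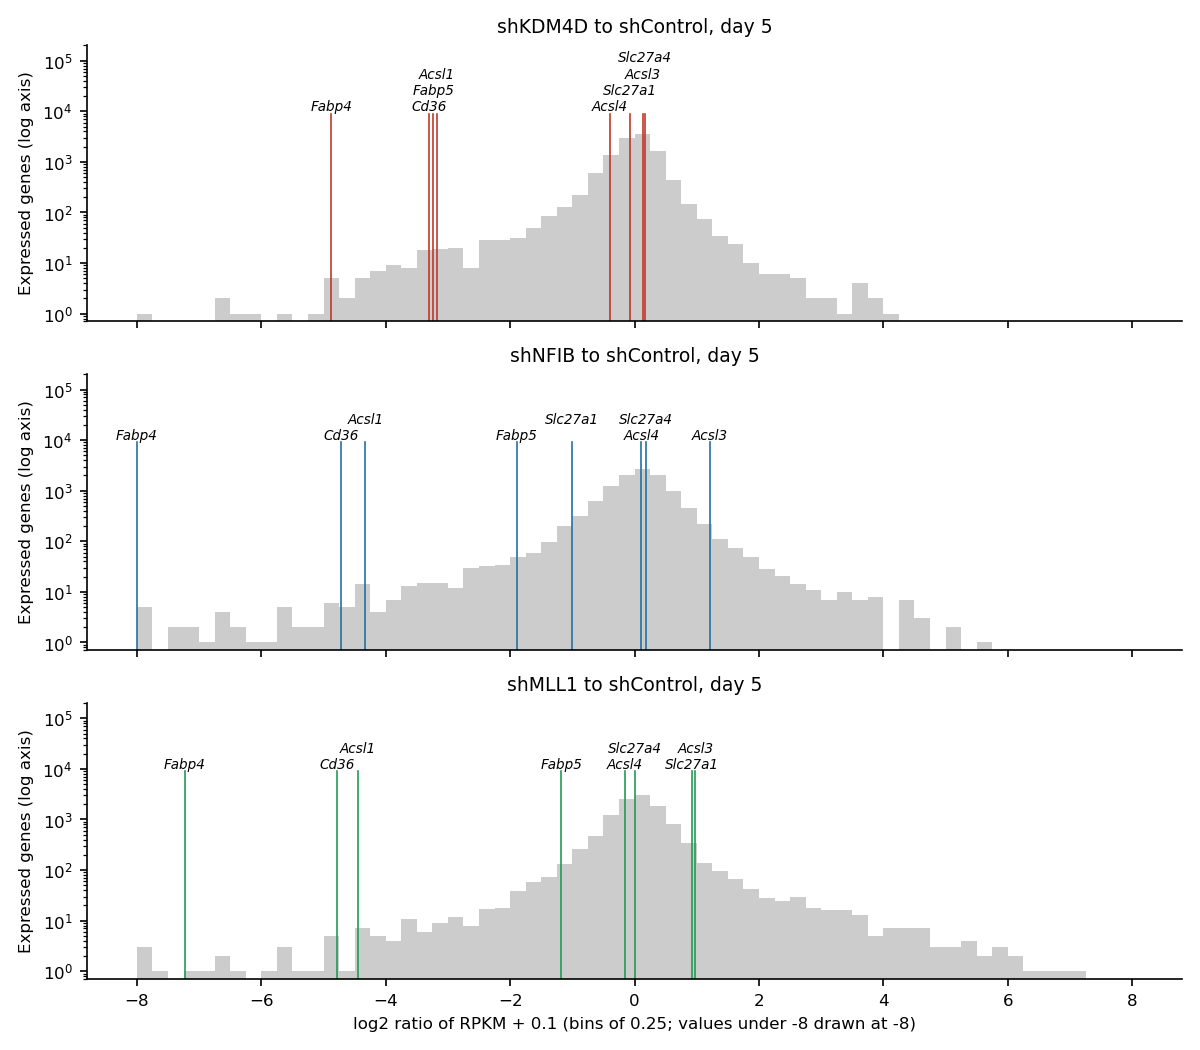
Number of the 11513 expressed genes (vertical log axis) by log2 ratio of RPKM + 0.1 to shControl cells at day 5 (horizontal axis, bins of 0.25), with vertical lines at the 8 expressed genes studied here. *Fabp4*, *Cd36* and *Acsl1* lie in the left tail in the 3 lines and *Acsl4* and *Slc27a4* near the center.

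The change from day 0 to day 5 in a knockdown line was also set against that in control cells, as the difference of the 2 log2 changes with an approximate 95% counting interval. In shKDM4D cells *Fabp4* (-3.12, -3.88 to -2.36), *Fabp5* (-1.99, -2.21 to -1.78) and *Acsl1* (-3.21, -3.40 to -3.02) lay under -1, which with either sign held for 5.18% of all genes. In shNFIB cells the same genes lay under -1, *Fabp4* at -5.30 (-7.05 to -3.55), *Fabp5* at -1.26 (-1.43 to -1.09) and *Acsl1* at -4.06 (-4.30 to -3.81), and *Acsl3* lay above 1 at 1.29 (1.12 to 1.45), with 10.2% of all genes. Divided by *Gapdh*, *Acsl3* was no longer past the limit. In shMLL1 cells they were -5.18 (-5.84 to -4.52), -2.01 (-2.12 to -1.91) and -4.51 (-4.69 to -4.33), with 12.0% of all genes. *Cd36* and *Fabp3* have no such value, since they were at 0 reads in 1 or more of these libraries. For *Slc27a4* and *Acsl4* the difference lay between -0.15 and 0.22 in the 3 lines.

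The genes whose profile over the 8 libraries was most like that of a member were sought among the expressed genes, by the root mean square difference of centered log2(RPKM + 0.1) values. For *Fabp4* they were *Adipoq* (0.87), *Cidec* (0.87) and *Plin1* (0.91), a hormone and 2 lipid droplet proteins of fat cells that are also among the adipocyte markers, where the median over all genes was 3.38. For *Cd36* they included *Ephx2* (0.23) and *Slc2a4* (0.23), which encodes the insulin-responsive glucose transporter, with a median of 1.83. For *Acsl1* they were *Adrb3* (0.30), a receptor that triggers lipolysis, *Pnpla3* (0.31) and *Pnpla2* (0.38), which encodes adipose triglyceride lipase, with a median of 1.39. *Adrb3* and *Pnpla3* were listed at 0 in 6 of the 8 libraries and reached only 1.07 and 1.20 RPKM, so the size of their likeness is set by the added 0.1. These profiles share 1 high library, that of control cells at day 5. For *Fabp5* the nearest genes were *Ppa1* (0.39), *1810049J17Rik* (0.55) and *Pcbp3* (0.55), with a median of 1.15, and for *Slc27a1* they were *Spn* (0.27), *4930478M13Rik* (0.34) and *Lars* (0.36), with 0.93. For *Fabp3*, covered by few reads, they were *Kcnmb4* (0.46), *AL732309.1* (0.50) and *Gm14418* (0.51), with 0.98. The other 4 genes spanned too small a range for this comparison.

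Of 54 further genes of the pathway 33 were expressed. From day 0 to day 5, 6 of these rose and 2 fell in control cells, 4 rose and 3 fell in shKDM4D, 7 rose and 3 fell in shNFIB, and 12 rose and 4 fell in shMLL1 cells. The shares over all expressed genes were 13.0% and 8.56%, 12.8% and 8.44%, 12.6% and 4.96%, and 20.4% and 6.89%. At day 5, 6 were lower and 0 higher than in control cells in shKDM4D, 6 lower and 2 higher in shNFIB, and 1 lower and 2 higher in shMLL1 cells. Of all expressed genes 4.57% and 1.88%, 5.67% and 5.54%, and 4.02% and 5.25% were lower and higher. At day 0 these counts were 5 and 0, 4 and 2, and 6 and 2, with 4.26% and 1.98%, 6.05% and 2.95%, and 7.43% and 1.67% of all genes. Some of these calls, and some in the other comparisons, rest on few reads and have counting intervals that include no difference. *Lpl*, the lipase that frees fatty acids from lipoproteins, had an RPKM of 33.1 in control cells at day 5 and 0.998, 0.151 and 0.0501 in shKDM4D, shNFIB and shMLL1 cells. At day 0 the interval of its log2 ratio to control cells included no difference in shKDM4D (-7.17 to 1.78) and shMLL1 cells (-8.14 to 0.82). In shNFIB cells it was 0.22 to 4.08. *Slc27a6*, which encodes FATP6, rose in all 4 lines, from 1.48 to 4.98 RPKM in shControl, 0.185 to 3.93 in shKDM4D, 0.0862 to 0.991 in shNFIB and 0.474 to 7.35 in shMLL1 cells. It was the only expressed FATP gene outside the members. At day 5 it was called lower than in control cells only in shNFIB cells (log2 ratio -2.33, -2.86 to -1.84), while in shMLL1 cells its ratio was 0.56 (0.35 to 0.78). *Acsf2*, a mitochondrial acyl-CoA synthetase, also rose in the 4 lines, by log2 changes of 2.21, 1.44, 3.43 and 1.97. *Cav1*, which encodes the caveolae protein caveolin-1, rose in control cells from 12.9 to 41.9 RPKM. It went from 20.7 to 23.5 in shKDM4D, from 11.8 to 20.8 in shNFIB and from 31.9 to 31.0 in shMLL1 cells. At day 0 it was called higher than in control cells in shMLL1 cells (log2 ratio 1.30, 1.21 to 1.40). *Dbi*, which encodes the acyl-CoA binding protein, had 61.5 and 109 RPKM in control cells and 67.6, 73.7 and 64.2 at day 5 in the knockdown lines, within the 2-fold limit. Of the 13 acyl-CoA binding and thioesterase genes 10 were expressed, and none of these was called between a knockdown line and control cells at day 5, a count that the low shares over all genes leave without weight.

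Among the regulators known to act on these genes, *Pparg* had an RPKM at day 0 and day 5 of 8.20 and 21.7 in shControl, 5.598 and 8.21 in shKDM4D, 6.02 and 7.48 in shNFIB, and 3.34 and 7.22 in shMLL1 cells. *Cebpa* had 2.05 and 14.0, 1.59 and 5.42, 1.22 and 3.66, and 0.596 and 2.42 in the same order. Both were called lower than in control cells in shMLL1 cells at day 0. At day 5 both were called lower than in control cells in all 3 lines, and *Cebpb*, *Ppard* and *Rxra* were called in none. By *Cebpa*, *Pparg*, *Cd36* and *Acsl1* at day 5 the knockdown lines stood in the order shKDM4D, shNFIB, shMLL1. By *Fabp4* and the summed adipocyte markers the order was shKDM4D, shMLL1, shNFIB, and by *Fabp5* it was shMLL1, shNFIB, shKDM4D. For *Cd36* and *Acsl1*, shNFIB and shMLL1 cells did not differ beyond counting error, and *Pparg* and *Cebpa* have no counting interval here. The part of these regulators and of the number of fat cells in the levels of the members was not tested.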

How the data were processed

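RNA from C3H10T1/2 cells was sequenced on a HiSeq 2500 from SMARTer libraries, 1 per condition. The authors used CLC Genomics Workbench 11.0.1 for mapping to GRCm38 (costs of 2 for a mismatch and of 3 for an insertion or a deletion, both fractions at 0.8) and deposited 1 RPKM value per gene and library. Here read counts were recovered from RPKM with the GENCODE M21 exon lengths (Python 3.11.15, pandas 2.3.3, scipy 1.17.1): between 96.2% and 96.5% of values of at most 1000 reads lay within 0.02 of a whole number, and all values of the members did. Gene positions are those of GENCODE M21. Levels carry exact Poisson intervals and ratios exact Clopper-Pearson intervals conditional on the summed reads (95%). The recovered depths, the ratio intervals and the 2-fold calls were tested on simulated Poisson counts, which hold no spread beyond counting error. The Poisson intervals of the levels were not tested. Named were the 10 members, genes of the pathway lists with an RPKM of at least 5 in at least 1 library, and for members whose range exceeded 2 on the log2(RPKM + 0.1) scale the 3 most similar genes; some genes that this rule names are not reported here. The members and lists were chosen with earlier results of these data known. Alternatives were 3 other scalings, pseudocounts of 0.1 and 1, a 1.5-fold limit and other filters. A count model with replicates was not possible with 1 library per condition. Beside the sequences from RefSeq no genome sequence was used.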

Additional observations from a re-analysis of the deposited data

Results flagged for a closer look

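In 6 cases a gene changed from day 0 to day 5 in a knockdown line in the opposite direction to control cells, with both counting intervals excluding 0. Opposite signs with an interval that includes 0 are not among them. With 1 library per condition the difference was not tested against any replicate spread. *Fabp5* had a log2 change of 0.49 in shControl cells, whereas shKDM4D cells had -1.50, shMLL1 cells -1.53 and shNFIB cells -0.77. *Acsl1* had a change of 3.76 in shControl cells and of -0.29 in shNFIB and -0.75 in shMLL1 cells. *Acsl3* had a change of -1.09 in shControl cells and of 0.19 in shNFIB cells, the only one of the 6 whose sign turned with another scaling, to -0.37 when divided by *Gapdh*.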

How the results depend on the processing

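Of 88 counts of changed members under the alternatives, 77 stayed within 1.5 times the reported count and 11 did not, and the cause was not tested for these unless stated. Adding 1 to each RPKM, which by construction shrinks the ratios of low genes, left 2 members for day 5 against day 0 in shKDM4D and 0 in shNFIB cells, and 1, 0 and 0 for shKDM4D, shNFIB and shMLL1 against control cells at day 0. Adding 0.1 left 1 for day 5 against day 0 in shNFIB cells and 1 for shMLL1 cells at day 0. With the whole counting interval past 2-fold, an alternative chosen after seeing the data, 3 remained for day 5 against day 0 in control cells, 1 in shNFIB cells and 1 for shMLL1 cells at day 0. With a 1.5-fold limit, 5 members differed in the change of shMLL1 cells from that of control cells. Division by *Gapdh* moved the median ratio of all genes by up to 0.63 (shNFIB against control cells at day 0). With no filter on RPKM all 10 shares of changed genes moved by over 1.5 times. No paired analysis was possible because the labels give no replicate numbers and each condition has 1 library. Depth limits *Fabp3*, *Slc27a3* and *Cd36* outside control cells at day 5.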
